A study of Mus musculus with 3 samples.

Results

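The 10 genes described here are Spp1, Gpnmb, Trem2, Cd36, Fabp5, Lpl, Apoe, Abca1, Abcg1 and Cd9, which are often grouped as genes of lipid-associated macrophages. They were taken as a named list, by symbol, and all 10 were found once each among the 32285 features of the count files. Their levels were followed in single cells from injured tibialis anterior muscle of C57/BL6J mice, a wild-type strain, 4 days after barium chloride was injected to damage the fibres. There were 3 libraries. Young PBS came from young mice whose injured muscle was injected with saline, old PBS from old mice given the same saline, and old rMETRNL from old mice given recombinant METRNL, a secreted cytokine-like protein. Injury and injection were thus common to all groups, and uninjured muscle was not analysed here. Each group was 1 library made from pooled mice, so no difference below has a replicate check, no test between groups was made, and every interval covers counting error of these libraries only.

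Lipid-associated macrophages are phagocytes that take up lipid-rich debris in fat, plaque, brain and injured tissue. Their genes form a chain that starts with sensing and uptake of lipid (TREM2 and CD36 at the surface, lipoprotein lipase outside the cell), passes through binding and lysosomal handling (FABP5, GPNMB) and ends with export of cholesterol to apolipoprotein E through ABCA1 and ABCG1. In regenerating muscle such cells clear the membranes of dead fibres, and osteopontin, the product of Spp1, is secreted by them into the tissue.

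After filtering, 31823 of 38748 barcodes were kept, with a median of 13698 to 15100 UMIs (unique transcript counts) per cell, and pairs of libraries shared 58 to 80 barcode sequences. Marker genes gave 9 cell classes, each called "-like" since no protein or staining was at hand to name it. The macrophage/monocyte-like class was the largest, with 6145, 5715 and 6644 cells and 96146763 to 111241298 UMIs per library. From here on, 3 values in a row follow the order young PBS, old PBS, old rMETRNL. All 14 markers of the class had UMIs in it in every library, but so they did in every other class, so their presence does not set it apart. By level, Ly6c2 and Ccr2 were higher in dendritic-like and T/NK-like cells in each library. The other markers were highest in the macrophage/monocyte-like class in each library. The 10 genes were left out of the clustering, so neither the classes nor the macrophage sub-clusters were built from them. The level of a gene is given as CPM, its UMIs in a class scaled to a class total of 1000000 UMIs. CPM is not scaled by transcript length, so it is compared between libraries and classes for 1 gene and not between genes.

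The genes lie on chromosomes 3 to 8 and 17 in the GENCODE M21 annotation of GRCm38. Abca1, whose age and treatment ratios each took 1 side in all 13 macrophage sub-clusters, spans chr4:53030787-53159895 on the minus strand. Spp1 (chr5:104435118-104441050) and Gpnmb (chr6:49036546-49070929), whose levels went with each other from one macrophage state to the next, are on the plus strand. RefSeq promoters (GRCm38.p6) were held for 7 of the 10 genes. The 250 bases before the start site of these 3 genes are printed 5′ to 3′ on the gene's strand, with matches to any of 5 searched motifs in capitals, since they are the genes that the results below turn on.
Abca1, chr4:53159896-53160145: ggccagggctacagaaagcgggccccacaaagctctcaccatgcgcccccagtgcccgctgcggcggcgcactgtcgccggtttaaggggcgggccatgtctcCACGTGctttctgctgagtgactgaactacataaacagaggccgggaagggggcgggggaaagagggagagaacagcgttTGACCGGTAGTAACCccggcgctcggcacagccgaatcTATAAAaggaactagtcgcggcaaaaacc
Spp1, chr5:104434861-104435110: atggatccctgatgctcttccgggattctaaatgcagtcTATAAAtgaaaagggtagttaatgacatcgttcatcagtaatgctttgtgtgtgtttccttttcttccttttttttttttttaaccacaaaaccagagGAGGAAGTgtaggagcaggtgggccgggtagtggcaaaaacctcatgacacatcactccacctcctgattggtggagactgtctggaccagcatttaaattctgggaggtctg
Gpnmb, chr6:49036268-49036517: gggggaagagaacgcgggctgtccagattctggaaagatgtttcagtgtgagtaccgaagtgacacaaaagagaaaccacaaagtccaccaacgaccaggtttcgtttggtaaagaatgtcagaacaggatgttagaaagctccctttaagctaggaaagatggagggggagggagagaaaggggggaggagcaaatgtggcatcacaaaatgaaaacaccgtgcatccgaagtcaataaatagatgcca

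The motifs were searched on both strands. The Abca1 window holds CACGTG, the E-box letters, 147 bases before the start site and TATAAA 29 bases before it. It also holds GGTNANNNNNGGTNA, a direct repeat of the form bound by oxysterol (LXR) receptors, on the opposite strand, beginning 67 bases before the start site. That repeat was present in 0.621% of 32851 promoters of the same length, CACGTG in 6.02% and TATAAA in 12.4%. The Spp1 window holds GAGGAAGT, of the PU.1 type, 113 bases before the start site, a match found in 2.44% of promoters, and TATAAA farther upstream. The Gpnmb window matched none of the 5 motifs, and TGANTCA, the AP-1 letters (6.75% of promoters), was matched in Trem2 alone of the 7. No match overlapped another, and a match is a description of the letters and not a measured site.

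Across the cell classes, 8 of the 10 genes had their highest level in macrophage/monocyte-like cells in every library, and the other two, Cd36 and Cd9, did not. For these 8 the lowest macrophage level over the libraries was above the highest level of any other class. Macrophage/monocyte-like cells held 96.2%, 94.03% and 96.0% of the Gpnmb UMIs of kept cells. The corresponding shares were 96.5%, 93.6% and 96.2% for Trem2 and 96.1%, 92.8% and 95.3% for Apoe. For Cd9 they were 40.8%, 52.6% and 46.8%.

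UMIs of macrophage genes were also counted in cells that should lack them, as free RNA in the droplets can give. Summed over C1qa, C1qb, C1qc, Ms4a7 and Adgre1, 5 defining macrophage genes, the level in FAP-like cells (fibro/adipogenic progenitors) was 2.07%, 2.75% and 2.09% of the macrophage level. In endothelial-like cells it was 2.06%, 3.80% and 3.39%. Trem2, the lipid receptor, stood at 1.99%, 2.49% and 2.11% of its macrophage level in FAP-like cells and at 1.88%, 3.23% and 2.68% in endothelial-like cells, and Gpnmb in FAP-like cells at 2.34%, 3.33% and 2.80%. These shares were near those of the defining genes. In Schwann/glial-like cells the defining genes reached 11.3% to 19.4%, and this class had 26, 71 and 53 cells, so its values for Trem2 (101 to 125 CPM) and Apoe (3933 to 6357 CPM) stand beside a high background.

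Other genes of the list stood well above that background outside macrophages. Cd36, which imports fatty acids, was at 801, 1119 and 746 CPM in endothelial-like cells, above its macrophage level in each library, and at 265 to 345 CPM in pericyte/smooth muscle-like cells. Lpl, whose product frees fatty acids from lipoproteins and acts at the vessel wall, was at 404, 392 and 340.5 CPM in FAP-like cells, the class next after macrophages. FAP-like cells held 25.3%, 11.8% and 14.4% of Lpl UMIs. Their level was 76.4% of the macrophage level in young PBS and 43.0% and 42.7% of it in the old libraries.

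Cd9, a tetraspanin of the cell surface, had its highest level in Schwann/glial-like cells (2156, 2929 and 2026 CPM), followed by tenocyte-like cells (765, 895 and 896 CPM) and endothelial-like cells (630.0, 551 and 571). The ranges over the 3 libraries of these classes did not overlap. Spp1 outside macrophages was highest in Schwann/glial-like cells (1371, 1176 and 956 CPM). Tenocyte-like cells (1011, 397 and 626 CPM) and myocyte/fibre-like cells were lower in each library. In myocyte/fibre-like cells it was at 402, 456 and 652 CPM, which were 17.1% to 20.6% of the macrophage level, where the defining macrophage genes were at 1.52% to 3.45%. The class joins 2 clusters whose parts differed by library. The cluster led by Ttn and Gal held 470, 215 and 451 cells and that led by Ckm and Myl1 34, 442 and 131, with median depths of the class of 27172, 3524 and 19723 UMIs, so its place in this order is not compared between libraries. Fabp5, a carrier of fatty acids inside the cell, was at 1138, 729 and 904 CPM in endothelial-like cells, and Abca1 was at 208, 250.01 and 205 CPM there, 41.6% to 54.3% of its macrophage level.

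**Figure D1:**
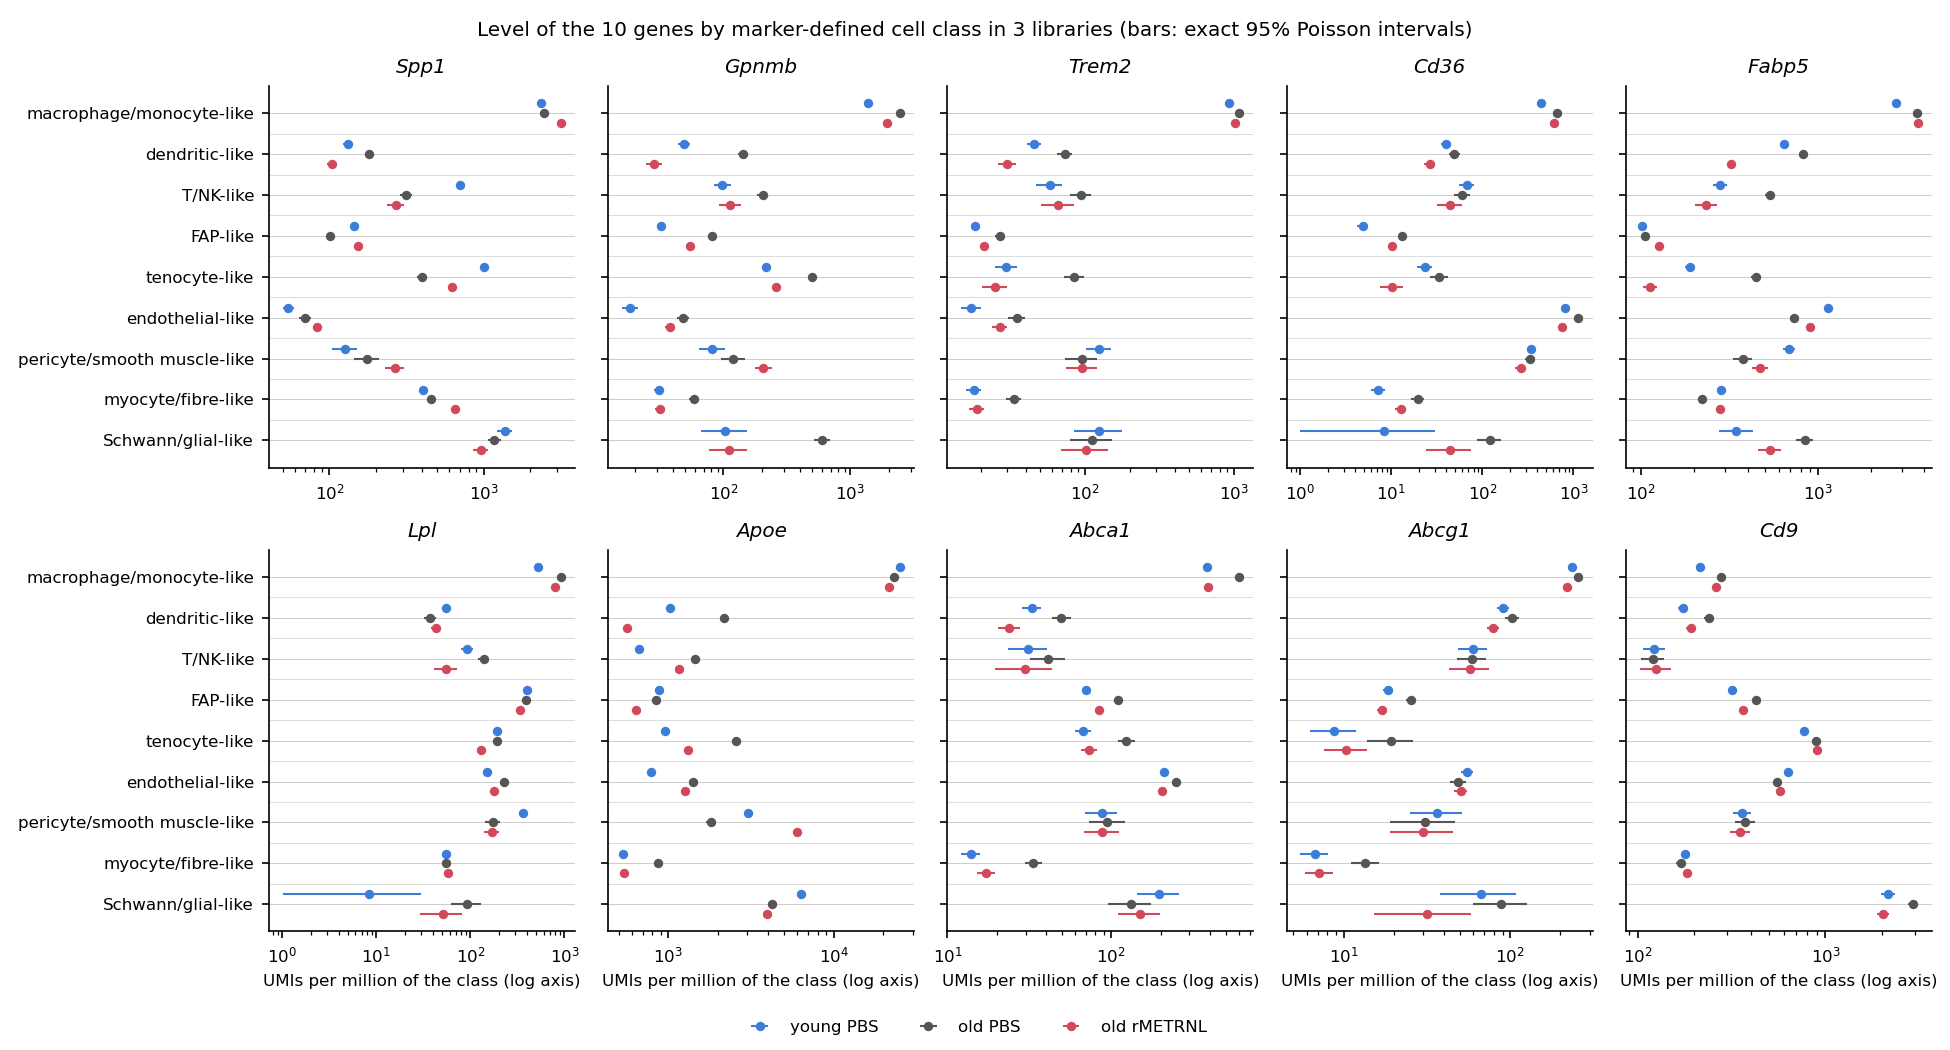
Level of each gene (x axes, CPM, log scale) in 9 marker-defined classes (rows) in young PBS, old PBS and old rMETRNL, with exact 95% Poisson intervals. Spp1, Gpnmb, Trem2, Fabp5, Lpl, Apoe, Abca1 and Abcg1 are highest in the macrophage/monocyte-like row, Cd36 in the endothelial-like row (746 to 1119 CPM) and Cd9 in the Schwann/glial-like row (2026 to 2929 CPM).

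In macrophage/monocyte-like cells a contrast of age (old PBS over young PBS) and one of treatment (old rMETRNL over old PBS) ask whether lipid-handling genes differ with age and after the protein was given. The contrasts share the old PBS library, so a level peculiar to it moves both in opposite directions, and the level in all 3 libraries is given for each gene. In old PBS, 9 of the 10 genes were higher than in young PBS, all but Apoe, with a median log2 ratio of 0.38 over the list, against -0.0057 over 14294 genes with at least 50 UMIs. Gpnmb, Lpl and Abca1 were at least 1.5 times higher and none was 1.5 times lower, where 6.29% of all genes were that much higher and 7.04% lower. In old rMETRNL, 8 of the 10 were lower than in old PBS, all but Spp1 and Fabp5, with a median log2 ratio of -0.11 against 0.049 over all genes. Abca1 was more than 1.5 times lower and none was that much higher, where 3.67% and 6.02% of all genes were. Old rMETRNL against young PBS had a median of 0.34, with Lpl past 1.5 times (4.2% of all genes were that much higher and 2.21% lower). The genes were chosen with earlier results of these libraries known, and the medians are descriptions.

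Gpnmb and Spp1 encode glycoproteins, the first of lysosomes and endosomes and the second secreted. Gpnmb was at 1381, 2455 and 1947 CPM. The age ratio was 1.78 (95% interval 1.77 to 1.79) and the treatment ratio 0.793 (0.788 to 0.798), so old rMETRNL lay between the others. Spp1 was at 2348, 2460 and 3164 CPM, which gave 1.05 (1.04 to 1.05) for age and 1.29 (1.28 to 1.29) for treatment. Old rMETRNL was the highest of the 3 for Spp1, the reverse of its place for Gpnmb relative to old PBS. With the sub-cluster shares described below held equal, the age ratio of Spp1 was 0.903.

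Trem2, a receptor for lipids and lipoproteins that signals through TYROBP, was at 919, 1077 and 1004 CPM. Its ratios were 1.17 (1.16 to 1.18) for age and 0.932 (0.925 to 0.940) for treatment, small beside those of Gpnmb. Cd9 was at 215, 279 and 259.7 CPM, which is 1.3003 times (1.28 to 1.32) for age and 0.930 (0.915 to 0.946) for treatment. Both genes were highest in old PBS and lowest in young PBS.

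The 3 genes of fatty acid uptake were higher in both old libraries than in young PBS. Lpl was at 529, 909.9 and 797 CPM, so that old PBS stood 1.72 times (1.70 to 1.74) above young PBS and old rMETRNL at 0.876 (0.868 to 0.884) of old PBS. Without the Atp6v0d2/Rnf128-like subset (sub-clusters 7 and 13 of these cells) the latter ratio was 0.992. Cd36 was at 438, 652 and 605 CPM, 1.49 (1.47 to 1.51) for age and 0.927 (0.917 to 0.938) for treatment. Its age ratio lay just under the size of 1.5 used above. Fabp5 was at 2775, 3616 and 3680 CPM, which is 1.303 (1.297 to 1.31) for age. Its treatment ratio of 1.02 (1.01 to 1.02) took the other side of 1 in 5 of 13 alternative settings, so no direction is given for it. Reads that Fabp5 shares with near-identical pseudogenes may not have been assigned to it, which leaves its level less certain than the others.

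Of the 3 genes of cholesterol export, Abca1 differed most between libraries. Abca1, the transporter that loads cholesterol onto lipid-poor apolipoproteins, was at 384, 601 and 388 CPM. Its age ratio was 1.57 (1.55 to 1.59) and its treatment ratio 0.645 (0.637 to 0.653), and old rMETRNL over young PBS was 1.01 (0.996 to 1.02), the one interval over the 10 genes and 3 ratios that held 1. Abcg1, which exports cholesterol to lipoprotein particles, was at 235, 255 and 220.5 CPM, 1.08 (1.06 to 1.10) for age and 0.866 (0.851 to 0.881) for treatment. Its highest and lowest levels thus differed by less than those of Abca1 in ratio. Apoe, the apolipoprotein that carries the exported lipid, was at 25222, 23252 and 21569 CPM, 0.922 (0.920 to 0.924) for age and 0.928 (0.926 to 0.929) for treatment. It was the gene of the list whose level was lowest in old rMETRNL and highest in young PBS. At held sub-cluster shares its age ratio was 1.02.

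**Figure D2:**
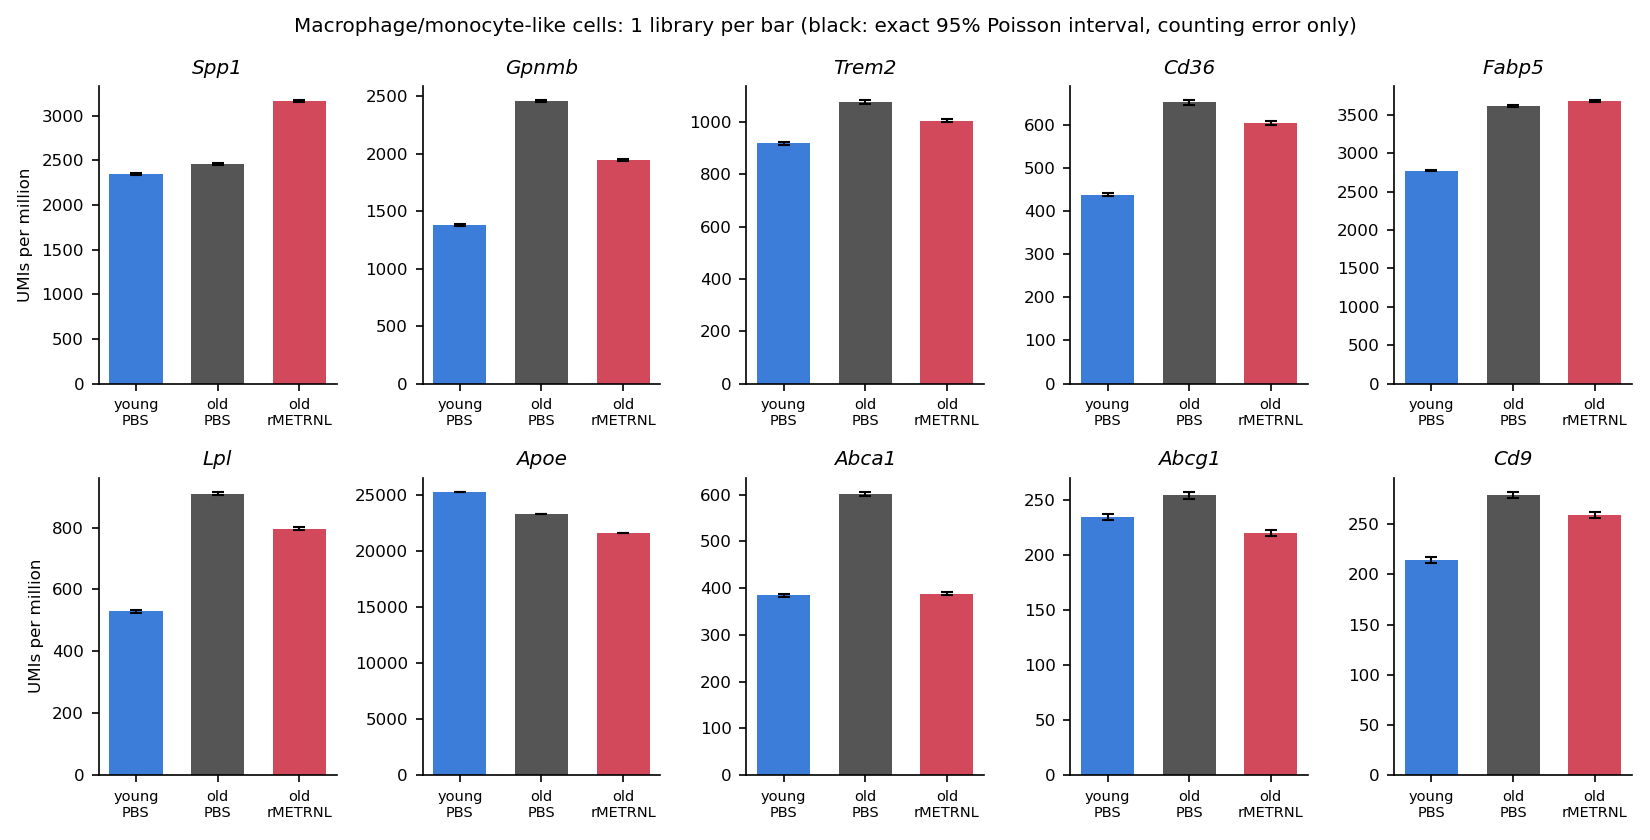
Level of each gene in macrophage/monocyte-like cells (y axes from 0, CPM), 1 library per bar, with exact 95% Poisson intervals as black marks. Abca1 stands at 601 CPM in old PBS and at 384 and 388 in the others, Gpnmb and Lpl are highest in old PBS, and Spp1 is highest in old rMETRNL at 3164 CPM.

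The 10 genes took 3.44%, 3.56% and 3.36% of all macrophage UMIs, most of them from Apoe. Without Apoe the other 9 took 0.922%, 1.23% and 1.21%. Holding the shares of the macrophage sub-clusters at their mean over the libraries lowered the median age log2 ratio from 0.38 to 0.18 and left Gpnmb as the sole gene of the list past 1.5 times higher (6.3% of all 14294 genes were at held shares, and 3.49% that much lower), at 1.52, with Lpl at 1.43, Abca1 at 1.38 and Cd36 at 1.201. Under the same setting the treatment ratio of Abca1 was 0.732 and no gene of the list was past 1.5 times in that contrast (3.29% of all genes were higher and 4.18% lower). Markers of other cells also differed between the macrophage libraries. The summed level of 6 erythroid markers was 282, 51.6 and 148 CPM, of 12 FAP markers 688, 443 and 558, of 10 T/NK markers 122, 221 and 160, of 10 myocyte/fibre markers 69.9, 124 and 74.7, and of 7 B cell markers, 1 of them at 0, 158, 92.8 and 121. Their part in the ratios was not tested.

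**Figure D3:**
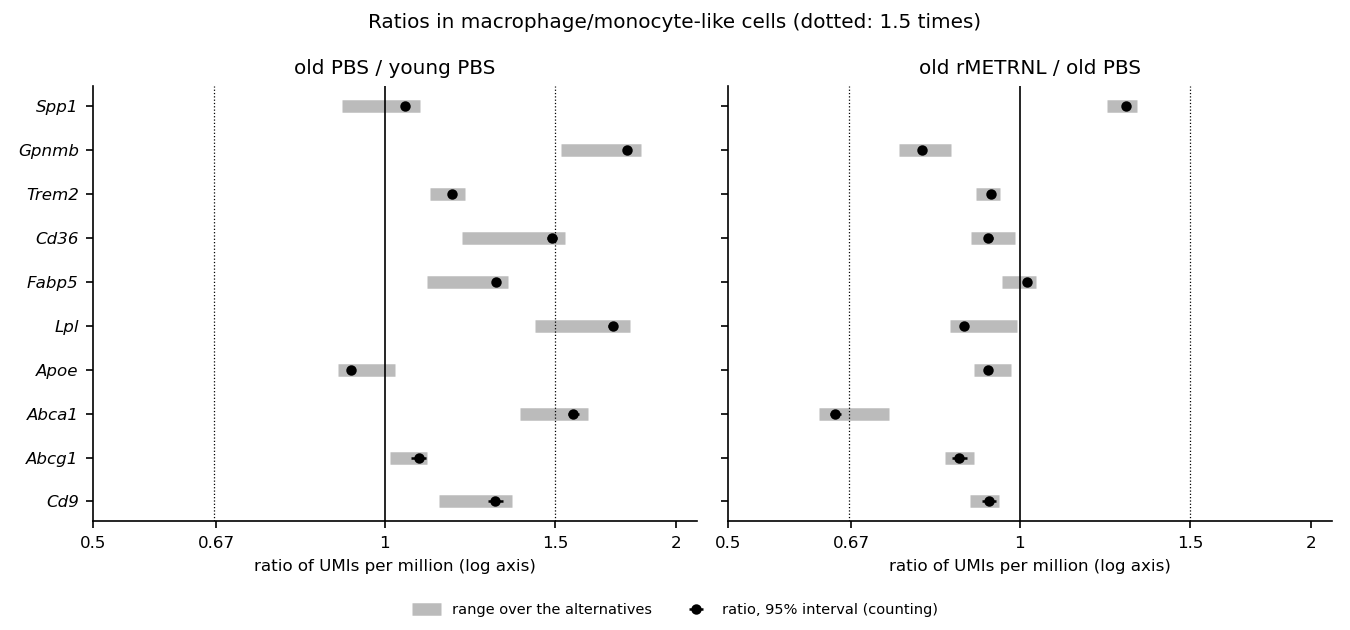
Ratio of levels in macrophage/monocyte-like cells (x axes, log scale) for old PBS over young PBS and old rMETRNL over old PBS. Points are the ratios with 95% intervals for counting error, grey bars the range over 13 alternative settings, and dotted lines mark 1.5 times. Abca1 lies at 1.57 and 0.645, Gpnmb at 1.78 and 0.793, and the grey bar crosses 1 for Spp1 and Apoe in the age contrast and for Fabp5 in the treatment contrast.

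Shares of cells with a UMI of Abca1 followed the order of its levels. After each cell was thinned to 2000 UMIs, which left out 64, 81 and 84 shallower cells, the share of macrophage/monocyte-like cells with a UMI of Abca1 was 46.9% (exact 95% interval 45.7% to 48.2%), 62.5% (61.2% to 63.7%) and 47.2% (46.0% to 48.4%). Without thinning the shares were 86.5%, 93.6% and 87.7%. In T/NK-like cells, where its level was 31.0, 41.2 and 29.7 CPM, thinned shares were 4.81%, 4.50% and 4.62%, with 4, 1 and 10 cells left out. Whether these UMIs came from the cells or from free RNA was not tested. Median depths were 14189 to 14959 UMIs in macrophage/monocyte-like and 4670 to 5861.5 in T/NK-like cells.

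A UMI of Gpnmb was found in 52.0%, 62.7% and 53.8% of thinned macrophage/monocyte-like cells, against 2.88% to 6.15% in T/NK-like cells. Without thinning its shares were 72.6%, 78.4% and 71.9%, so young PBS and old rMETRNL changed places while old PBS stayed highest. For Spp1 the thinned shares were 54.4%, 58.2% and 60.7% (79.0%, 81.7% and 84.5% without thinning), against 12.5% to 20%. T/NK-like cells are no plain background for every gene. The defining genes were in them at 3.97%, 8.01% and 6.15% of the macrophage level, while Spp1 was at 29.9%, 12.8% and 8.52%, Lpl at 17.4%, 15.2% and 6.91% and Cd9 at 57.2%, 43.2% and 47.9%. For Lpl the thinned shares of macrophage/monocyte-like cells were 31.4%, 41.3% and 42.3% (60.8%, 70.9% and 73.0% without thinning), against 2.88% to 6.92% in T/NK-like cells. Those for Trem2 were 69.1%, 72.0% and 70.1% (91.7%, 92.3% and 91.5%), against 6.25% to 8.50%. Apoe was found in 97.0% to 98.4% of macrophage/monocyte-like cells (99.8% to 99.9% without thinning) but also in 53.8% to 68.5% of T/NK-like cells, so a UMI of Apoe did not separate the classes. Cd9 was found in 24.1% to 30.7% (58.0% to 66.4%) against 14.5% to 20.8%.

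At the same depth, the share of macrophage/monocyte-like cells with at least 6 of the 10 genes was 42.1% (40.8% to 43.3%), 55.0% (53.7% to 56.3%) and 47.8% (46.6% to 49.0%). The mean number found per cell was 5.07, 5.74 and 5.37. Cells with a UMI of Spp1 held one of Gpnmb in 67.2%, 77.6% and 70.4% of cases, against 33.9%, 42.0% and 28.0% of cells without. Abca1 was found in 50.3%, 64.2% and 48.1% of cells with Spp1 and in 42.9%, 60.1% and 45.8% of cells without. The UMIs of Spp1 and Lpl were unevenly held. The 10% of cells with most UMIs of the gene had 64.7% to 69.2% of those of Spp1 and 62.9% to 69.6% of those of Lpl, whereas for Abca1 the share was 29.0% to 32.4% and for Apoe 27.9% to 30.3%.

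Macrophage/monocyte-like cells fell into 13 sub-clusters. Sub-cluster 7, led by Atp6v0d2, Ctsl and Mfge8 with Cd36 and Lpl and called Atp6v0d2/Rnf128-like, had the highest median level over the libraries of Spp1, Gpnmb, Trem2, Cd36, Fabp5, Lpl and Cd9. Its range overlapped that of the next sub-cluster for Gpnmb, Trem2 and Lpl. Its cells were also deep, with a median of 24190 UMIs against 10741 to 26154.5 over the sub-clusters, and the part of depth in these levels was not tested. Spp1 was at 6975, 5219 and 7165 CPM there, and at 152 to 239 CPM in sub-cluster 14, a Cd163/Lyve1-like group. Gpnmb was at 3238, 4663 and 4043 CPM in sub-cluster 7 and at 135 to 159 CPM in sub-cluster 12, another Cd163/Lyve1-like group. Lpl was at 1508, 2136 and 1663 CPM in sub-cluster 7, and sub-cluster 13, with Retnla, Ear2 and Mmp12 among its leading genes, was next at 1256, 1372 and 1814.

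Sub-cluster 13 carried the same subset name as sub-cluster 7 but differed from it in this list. Of the markers of that subset, Mmp12 and Dcstamp were among its leading genes, and Atp6v0d2 and Rnf128 were not. Its Apoe level was 3996, 4584 and 1949 CPM, the lowest of the 13, and its Spp1 level 467 to 948 CPM. Apoe was highest in sub-cluster 0, led by heat shock genes (40488, 40185 and 41982 CPM), and was at 12121 to 15104 CPM in sub-cluster 7. Its range there did not overlap that in sub-clusters 0, 1, 4, 5 and 6, where the lowest level was 28077 CPM. Abca1 had no such peak in sub-cluster 7 (395, 590 and 398 CPM). It was higher in sub-cluster 4, an Il1a/Slc7a11-like group (612, 836 and 642), and in sub-cluster 14 (771, 840.4 and 488), and lowest in the Ly6c2 high monocyte-like sub-cluster 11 (180.2, 259.6 and 185). Trem2 and Abcg1 varied least, with medians that spanned 2.86-fold and 2.09-fold over the sub-clusters, against 36.8-fold for Spp1 and 25.8-fold for Gpnmb.

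**Figure D4:**
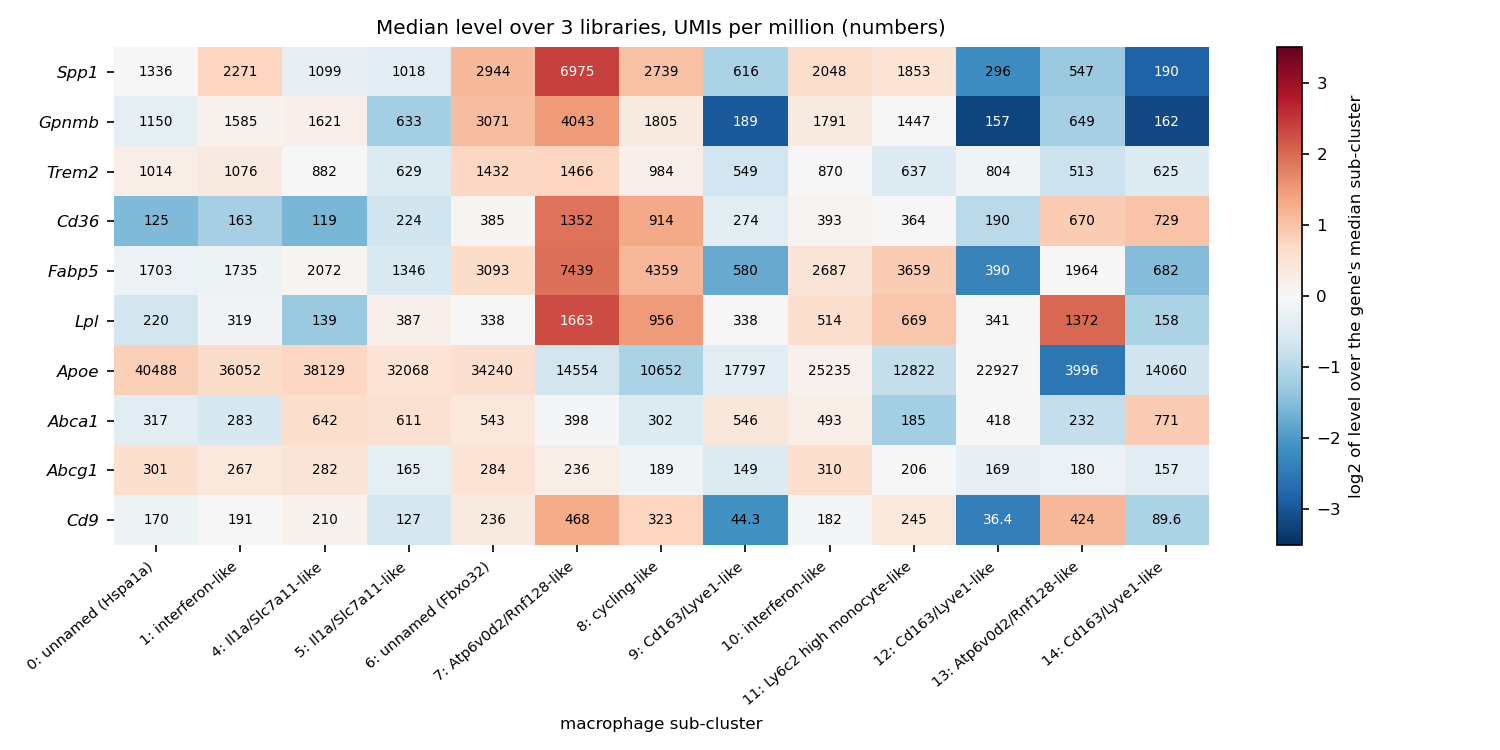
Level of each gene (rows) in 13 macrophage sub-clusters (columns, named by subset markers or by a leading gene), as the median over 3 libraries in CPM (numbers in cells), coloured by its log2 ratio to the gene's median sub-cluster. Sub-cluster 7 has the highest Spp1 (6975) and Gpnmb (4043), the Cd163/Lyve1-like sub-clusters 9, 12 and 14 are low in both, and Apoe is high in sub-clusters 0, 1, 4, 5 and 6.

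The Atp6v0d2/Rnf128-like subset (sub-clusters 7 and 13) made up 11.6%, 18.4% and 17.0% of macrophage/monocyte-like cells. It held 41.9%, 49.4% and 49.5% of the Spp1 UMIs of the class, 33.8%, 44.7% and 46.0% of the Gpnmb UMIs, 45.9%, 59.6% and 53.0% of the Lpl UMIs and 46.2%, 56.3% and 52.6% of the Cd36 UMIs. For Apoe the share was 7.11%, 15.5% and 14.9%. The interferon-like subset went the other way, at 24.4%, 5.27% and 14.2% of cells, and held 29.6%, 5.84% and 19.2% of Apoe UMIs. With 1 library per group, a sub-cluster weighted toward 1 library may be that library and not a state of the cells. Without the Atp6v0d2/Rnf128-like cells the median age log2 ratio of the list was 0.28.

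Over 39 units (13 sub-clusters in each of 3 libraries, which share libraries and depth within each), the levels of Gpnmb and Fabp5 had a Pearson r of 0.94, Spp1 and Fabp5 of 0.91, Spp1 and Gpnmb of 0.89 and Fabp5 and Cd9 of 0.89, on the log2(CPM + 1) scale. For Cd36 and Lpl r was 0.74. With Fabp5 it was 0.43 for Cd36 and 0.53 for Lpl, with Cd9 0.46 and 0.56, and with Spp1 0.25 and 0.42. For Apoe, r was -0.70 with both Cd36 and Lpl, -0.11 with Fabp5 and 0.45 with Trem2. Abca1 had r of -0.27 with Spp1, -0.21 with Gpnmb and -0.06 with Abcg1. The r values are descriptions.

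Among 9619 genes with at least 1000 UMIs in the class, outside the list, the pattern most like that of Spp1 was that of Aprt (r 0.94), a purine salvage enzyme, followed by Syngr1 (0.91). Tcirg1, a subunit of the proton pump of lysosomes and osteoclasts, was most like Gpnmb (0.94), followed by Arhgap24 (0.92). Galns and Ctsb, both lysosomal enzymes, were most like Trem2 (0.91 and 0.90), Gnptab and Aprt like Fabp5 (0.96 and 0.94), and Ctns, a lysosomal cystine transporter, and Arap1 like Abca1 (0.86 and 0.82). Ms4a7 and Aif1, both macrophage genes, were most like Apoe (0.95 and 0.90), Anxa2 and Anxa1 like Lpl (0.95 and 0.94), Vat1 and Oxct1 like Cd36 (0.91 and 0.89), F7 and Vdac2 like Cd9 (0.90 and 0.89), and Usp12 and Slc29a3 like Abcg1 (0.86 and 0.85).

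Within the sub-clusters the contrasts differed by gene. Abca1 was higher in old PBS than in young PBS in 13 of 13 sub-clusters, by 1.02 to 1.55 times, and the counting interval lay above 1 in 11. It was lower in old rMETRNL than in old PBS in 13 of 13, at 0.581 to 0.916 times, with each interval below 1. In sub-cluster 7 its ratios were 1.496 (1.45 to 1.54) and 0.675 (0.657 to 0.693). The sub-clusters come from the same libraries, so these are not 13 independent results. Abcg1 was lower in old rMETRNL than in old PBS in 12 of 13, with the interval below 1 in 6, and higher in old PBS than in young PBS in 8.

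Gpnmb was higher in old PBS than in young PBS in 11 of 13 sub-clusters (0.852 to 2.66 times) and lower in old rMETRNL than in old PBS in 10 (0.195 to 1.16 times). In sub-cluster 7 it was at 1.44 (1.42 to 1.46) and 0.867 (0.859 to 0.875). Lpl was higher in old PBS in 11 of 13, each with its interval above 1, and above young PBS in old rMETRNL in 12. For treatment it was above 1 in 7 of 13, with 5 intervals above 1 and 5 below. Spp1 took no single side for age, with 6 of 13 sub-clusters above 1 and a ratio of 0.748 (0.742 to 0.755) in sub-cluster 7. For treatment it was higher in 11 of 13 with the interval above 1, and at 1.37 (1.36 to 1.38) in sub-cluster 7. The exceptions were sub-clusters 13, at 0.577, and 14. Fabp5 was above 1 in 8 sub-clusters for age and 7 for treatment, Trem2 in 9 and 4, Cd36 in 10 and 5, Cd9 in 9 and 5 and Apoe in 8 and 5.

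**Figure D5:**
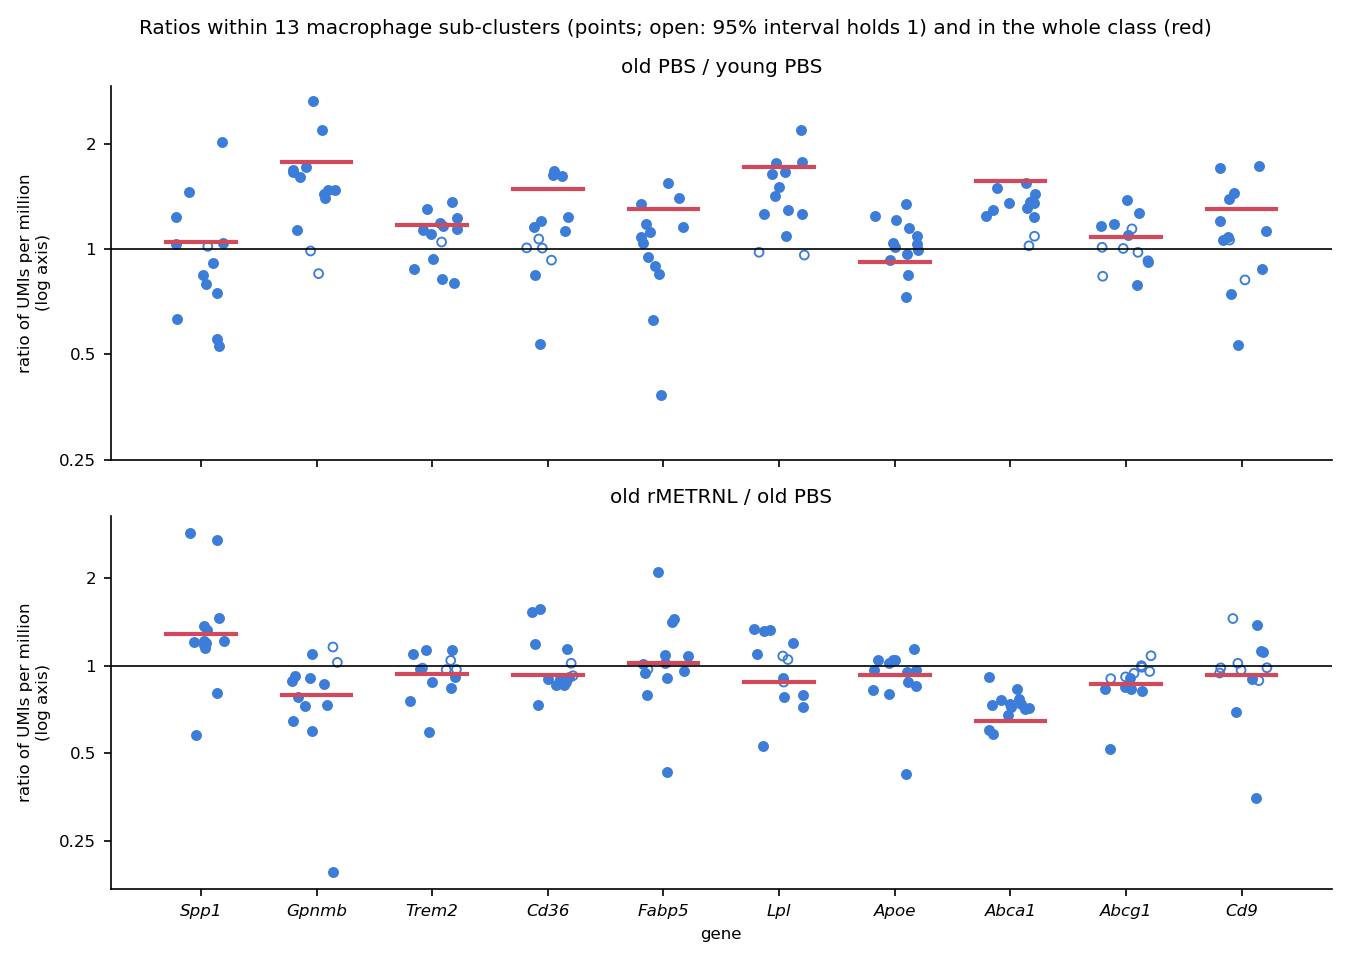
Ratio of levels (y axes, log scale) within each of 13 macrophage sub-clusters (points, filled where the 95% counting interval excludes 1) and in the whole class (red lines), for old PBS over young PBS and old rMETRNL over old PBS. The Abca1 points run from 1.02 to 1.55 in the first contrast and from 0.581 to 0.916 in the second, while those of Spp1, Fabp5 and Cd9 fall on both sides of 1.

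Among the classes other than macrophages, FAP-like cells had Gpnmb, Cd36 and Abca1 past 1.5 times higher in old PBS than in young PBS (7.75% of 14423 genes were, with 6.76% that much lower), and in the treatment contrast Spp1 higher (4.88% of genes) and Abcg1 lower (5.48%). Of these, Cd36 in FAP-like cells was at 1.10%, 2.03% and 1.68% of its macrophage level, below the 2.07%, 2.75% and 2.09% of the defining macrophage genes. Gpnmb at 2.34%, 3.33% and 2.80% was just above them. Spp1 was at 6.12%, 4.13% and 4.85%, with a treatment ratio of 1.51 in FAP-like cells and 1.29 in macrophages. The part of free RNA in these 3 ratios was not tested. Abca1 in FAP-like cells was at 70.4, 110.0 and 84.5 CPM, highest in old PBS as in macrophages, at 18.3% to 21.8% of the macrophage level. Endothelial-like cells, with median depths of 11389, 3937.5 and 7089 UMIs, had Gpnmb, Trem2, Lpl and Apoe past 1.5 times higher in old PBS (9.76% of 11730 genes) and Fabp5 lower (8.64%), and Cd36 lower in old rMETRNL (6.77%, with 5.75% of genes higher). The 5 defining macrophage genes in them were at 246, 408 and 361 CPM. Of the 4 higher genes, Lpl was at 22.2% to 28.4% of its macrophage level, at 150.1, 228 and 177 CPM, while the defining genes were at 2.06%, 3.80% and 3.39% of theirs. Gpnmb (1.34%, 1.96% and 1.95%) and Trem2 (1.88%, 3.23% and 2.68%) lay below that in each library and Apoe (3.09%, 6.09% and 5.81%) above it.

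In dendritic-like cells, Gpnmb, Trem2, Apoe and Abca1 were past 1.5 times higher in old PBS (6.26% of 9855 genes, with 8.01% lower), and Spp1, Gpnmb, Trem2, Cd36, Fabp5, Apoe and Abca1 lower in old rMETRNL than in old PBS (6.28%, with 6.14% higher). The summed level of the 5 defining macrophage genes moved in the same way there, at 562, 727 and 297 CPM, and its part in those 7 differences was not tested. Fabp5 in dendritic-like cells was at 642, 825 and 322 CPM, 22.8% to 23.1% of its macrophage level in the PBS libraries and 8.74% in old rMETRNL. For the remaining classes no share of all genes was computed, so their genes past 1.5 times are not listed. Abca1 had age and treatment ratios of 1.84 and 0.594 in tenocyte-like and 2.41 and 0.517 in myocyte/fibre-like cells. In Schwann/glial-like cells they were 0.673 and 1.13, with intervals that held 1. The part of free RNA in these ratios was not tested.

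The other genes of lipid handling were read from a list of 73 in 7 groups, 72 of which had at least 50 UMIs in macrophage/monocyte-like cells. Their median log2 ratio was 0.11 for age and -0.066 for treatment, nearer to 0 than that of the 10 genes. The 10 genes and this list were both chosen with earlier results of these data known, so the difference is a description only. For age, Olr1, Itgax, Gpihbp1 and Fabp4 were past 1.5 times higher and Angptl4 lower, and for treatment Itgax and Olr1 were past 1.5 times lower, which is 4 of 72 higher and 1 lower for age and 0 higher and 2 lower for treatment, beside the shares of all genes given above.

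Olr1, the receptor for oxidised lipoprotein, had the largest difference, at 9.13, 22.9 and 11.4 CPM, or 2.51 times (2.32 to 2.71) for age and 0.4995 (0.466 to 0.535) for treatment. Itgax, the integrin CD11c that marks macrophages of obese fat, was at 47.5, 93.2 and 55.9 CPM. Fabp4, the fatty acid carrier of fat cells, was at 164, 289 and 231 CPM. All 3 were highest in old PBS. Gpihbp1, which holds lipoprotein lipase at capillaries, was near the limit of counting in macrophages, at 0.839 to 1.58 CPM. Angptl4, an inhibitor of lipoprotein lipase, was at 19.95, 12.9 and 16.2 CPM, lowest in old PBS, where Lpl was highest. Arl4c, a gene of cholesterol export, was at 275, 377 and 265 CPM, and Fabp3 at 27.2, 26.4 and 38.6 CPM.

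By group, transcription factors of lipid handling had none of 10 past 1.5 times in either contrast, and Nr1h3, which encodes the oxysterol receptor LXR-alpha, was at 60.04, 61.8 and 56.3 CPM, which is 1.03 (0.992 to 1.07) for age and 0.912 (0.880 to 0.945) for treatment. Lysosomal lipid breakdown had none of 12 past 1.5 times, and Ctsb, its most counted gene, at 8847, 9763 and 8947 CPM. In TREM2 and phagocyte signalling 1 of 9 was past 1.5 times in each contrast, and Lgals3 was at 5058, 6396 and 6248 CPM. In lipid and lipoprotein uptake 1 of 10 was, and Cd68 was at 1192, 1191 and 1302 CPM. In fatty acid binding, storage and oxidation 1 of 12 was for age and none for treatment, and Plin2, the coat protein of lipid droplets, was at 1048, 1108 and 1150.1 CPM. Lipoprotein and efflux partners had 1 of 10 higher and 1 lower for age and none for treatment, with Pltp at 1068, 1182 and 1007 CPM. Receptors of osteopontin and apolipoprotein E had none of 9 in either contrast, and Cd44, an osteopontin receptor, was at 314, 449.9 and 336 CPM, 1.43 (1.41 to 1.45) for age and 0.747 (0.737 to 0.757) for treatment.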

How the data were processed

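Single cells of 3 libraries (young PBS, old PBS, old rMETRNL) were measured with 10x Genomics chemistry. Each deposited matrix held unnormalised UMI counts of features by barcodes, which the authors made with Cell Ranger (5.0.0 per the file headers, with 3.1.0 also in the submitters' processing notes, and another version in the study's methods, a conflict not settled here) on the mm10 genome. Reads matching several genes are not counted by this software, and cell calling preceded deposit. All files were used as raw counts.

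Barcodes were kept from 500 detected genes up if mitochondrial genes took less than 10% of their UMIs. Scrublet's automatic threshold called 0 doublets, so the highest scores were removed at 0.8% per 1000 barcodes (1174, 1259 and 1548 barcodes). Counts scaled to 10000 per cell and log-transformed gave 2000 variable genes without the 10 members, 30 principal components, 20 neighbours and Leiden clusters at resolution 0.8, in scanpy 1.11.5, igraph 0.11.9, numpy 2.4.6 and scipy 1.17.1 under Python 3.11.15, with no integration. Clusters were named from marker lists with at least 3 detected genes, and more for longer lists. The list with the highest mean log2 fold of its best 5 detected markers gave the name, unless another list had more of the 10 leading genes. Macrophage sub-clusters led by markers of another class left the class (2.49%, 6.65% and 3.97% of its cells), and these naming and removal conditions were set after cluster tables had been seen. UMIs were summed per class and library and scaled to CPM. Intervals were exact 95% Poisson (levels), Clopper-Pearson (shares) and conditional on the sum of 2 counts (ratios). For the list, 0.5 was added to each count. Scripts were tested on simulated counts.

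Genes named were the 10 members, the 5 lipid handling genes with the largest ratio in each contrast among those with at least 200 UMIs, the most counted gene of each group and the 2 most alike genes per member. The members and lists were chosen with earlier results of these data known. Coordinates are from GENCODE M21 and promoters from RefSeq. Alternatives changed the filter, doublets, resolution, clustering genes, gate, scaling, depth, sub-cluster shares and minimum count.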

Additional observations from a re-analysis of the deposited data

How the results depend on the processing

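Ratios of each gene were recomputed under 13 settings, 2 of them (counting the removed sub-clusters, and leaving out the Atp6v0d2/Rnf128-like subset) chosen after seeing the data. All but 7 of the recomputed values kept the side of 1 of the reported ratio. The age median of the list stayed between 0.18 and 0.43 on the log2 scale, and the treatment median between -0.16 and -0.093. With sub-cluster shares held at their mean, the genes past 1.5 times were 1 for age and 0 for treatment, against 3 and 1. The share of all genes past that size was 9.79% and 7.47% at held shares, a setting added for all genes after seeing the data. That setting turned the age log2 ratio of Spp1 to -0.147 and that of Apoe to 0.034. The treatment log2 ratio of Fabp5 turned to -0.0023 with the stricter cell filter, -0.062 with the looser one, -0.00037 with the mean of per-cell CPM, -0.024 with scaling by the median gene and -0.030 without the Atp6v0d2/Rnf128-like subset. The cause was not tested. Abca1 stayed between 1.38 and 1.62 for age and between 0.620 and 0.732 for treatment, and Gpnmb between 1.52 and 1.84 and between 0.751 and 0.850. With a minimum of 200 UMIs 8.98% of all genes were past 1.5 times for age and 6.05% for treatment, and with no minimum 31.1% and 28.0%, against 13.3% and 9.69%. No paired analysis was possible because each group had 1 library, and for the same reason no library could be left out. Counting intervals were narrow in macrophage/monocyte-like cells, and depth limited the small classes most.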
